A study of Mus musculus with 35 samples.

Results

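The fatty acid oxidation, ketone and Cyp4a genes described here were 33 genes of the mouse kidney, taken by gene symbol from a fixed list and joined by Ensembl identifier to the counts of every library, out of 31053 genes counted. All 33 were found. They comprised 4 genes of the carnitine shuttle, 4 acyl-CoA dehydrogenases, 5 enzymes of the mitochondrial oxidation cycle, 3 auxiliary enzymes for unsaturated fatty acids, 3 electron transfer genes, 4 peroxisomal genes, 3 ketone body genes, 2 regulators and 5 Cyp4a genes.

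RNA of whole kidneys from C57BL/6 mice at postnatal day 2 was sequenced from the 3′ end of the transcripts in 35 libraries. Folliculin, encoded by Flcn, is the tumour suppressor lost in Birt-Hogg-Dubé syndrome, and it holds the transcription factors TFEB and TFE3 in check through the lysosomal branch of mTORC1 signalling. Libraries labelled Flcn KO (5) were compared with 5 controls of their cross. Those labelled Flcn/Tfeb DKO, with both genes knocked out (4), were compared with 3 controls of that cross. Those labelled Flcn/Tfe3 DKO (10) were compared with 8 controls of theirs. The Flcn/Tfe3 libraries were deposited in separate count tables, called here set B (3 control, 6 DKO) and set C (5 control, 4 DKO), and the other 17 libraries are called set A. According to the methods, floxed Flcn, and in the Flcn/Tfeb cross also floxed Tfeb, was deleted by a Cre recombinase under the Cadherin 16 (Ksp) promoter, whose expression covers collecting duct, distal tubule and thick ascending limb. Tfe3 was instead null in the whole body, and controls were described as floxed Flcn mice without deletion. The alleles of the controls in the Flcn/Tfeb and Flcn/Tfe3 crosses were not spelled out in the labels. Nothing in the labels tied a library to a separate animal, so the p-values measure the spread between libraries. In whole tissue, fewer cells of a type and less RNA per cell cannot be told apart.

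Fatty acids are burned in mitochondria and peroxisomes. Long chains are coupled to carnitine to cross the mitochondrial membrane and are then shortened by repeated rounds of dehydrogenation, hydration, a second dehydrogenation and thiolytic cleavage, which yield acetyl-CoA and reduced electron carriers. The kidney, above all its proximal tubule, runs largely on fatty acid oxidation and also burns ketone bodies made by the liver, a fuel that is plentiful in suckling newborns. PPARα, a nuclear receptor for fatty acids, switches on most of these genes, and the Cyp4a genes, which encode ω-hydroxylases of fatty acids and arachidonic acid, are among its best known targets in liver and kidney. The proximal tubule, where most of these genes are abundant, is not among the segments that the paper names for the Cre. Deletion there was not measured.

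Library totals ranged from 1652649 to 4239356 counts, so that 3 counts corresponded to 0.708 to 1.82 CPM, the counts scaled by library size. Summed counts of 25 proximal tubule markers were present in every library, from 4137 to 8135 CPM, and each of the 25 was detected in every group. Flcn itself was at 10.3 to 18.8 CPM in the libraries labelled Flcn KO, a range that held the 11.9 to 16.4 CPM of their controls. Tfe3 lay at 12.4 to 24.6 CPM in the set B and 15.8 to 18.9 CPM in the set C libraries labelled Flcn/Tfe3 DKO, against 15.3 to 24.8 CPM and 17.5 to 19.0 CPM in the controls. The log2 fold change of Tfe3 was -0.09 ± 0.14. Tfeb was at 6.48 to 7.94 CPM in Flcn/Tfeb DKO and 7.0 to 19.5 CPM in the controls. Tags come from the 3′ end, and a tag outside the deleted exons checks nothing, so the labels are used as given. The share of alignments that were not unique, tallied for sets A and C only, ranged from 33.7 to 49.4% and differed between some of the groups. Its relation to each member that it moved with is given with the covariation of the members.

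Of the 33 genes, only Oxct1 passed the adjusted threshold in a comparison of a cross with its own controls, and it did so in the Flcn/Tfe3 cross. The tests were edgeR's quasi-likelihood test, two-sided, with Benjamini-Hochberg adjustment over all genes tested. In the Flcn cross 0 of the 30 members tested were called, against 0.52% of all 11932 genes, and the median log2 fold change of the members was 0.11, against -0.01 for all genes. At an unadjusted p under 0.05, 4 members were higher (all genes, 5.25%) and 1 was lower (3.81%), and DESeq2 also called 0, against 0.813% of 14519 genes. In the Flcn/Tfeb cross 0 of 29 members were called, where 0% of 12469 genes were. At an unadjusted p under 0.05, 0 members there were higher (1.86%) and 2 lower (3.21%), and DESeq2 called 0, as it did of all genes (0%). The median there was -0.19, against -0.02, and it was -0.054 without the third control. In the Flcn/Tfe3 cross 1 of 31 members was called, against 0.385% of 12456 genes, with a median of 0.06, against 0.01, and of 0.21 in set B alone and 0.03 in set C alone. Set B alone gave 0 calls among the members, against 0.0606% of 13191 genes, and set C alone 2 (Oxct1 and Hadha), against 4.68% of 12169. In the fit over both sets 7 members had an unadjusted p under 0.05 and were higher (3.68%), and 0 were lower (3.48%). In set C alone Crot (-0.57), Eci1 (-0.51), Echs1 (-0.47) and Cyp4a14 (-0.68) were lower at an unadjusted p under 0.05. Oxct1, Cpt1a, Hadha, Acadvl and Cyp4a31 were higher in that set at such a p. The share of all genes at that p in set C alone is not given here. These names are therefore not a result about the members. DESeq2 called 4 members over both sets (Acadvl, Hadha, Hadhb and Oxct1), against 0.57% of 16325 genes. Values for the 3 crosses are given in this order throughout. The fold changes of 21, 4 and 25 members lay above 0 in them, where 48.5%, 47.9% and 51.9% of all genes did. In the Flcn/Tfe3 cross 26 of 31 members did so in set B alone and 16 of 31 in set C alone. With the share of alignments not unique as a covariate, 14 of 31 did so in set C. Without the third control of the Flcn/Tfeb cross, 12 of the 30 members then tested lay above 0.

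**Figure D1:**
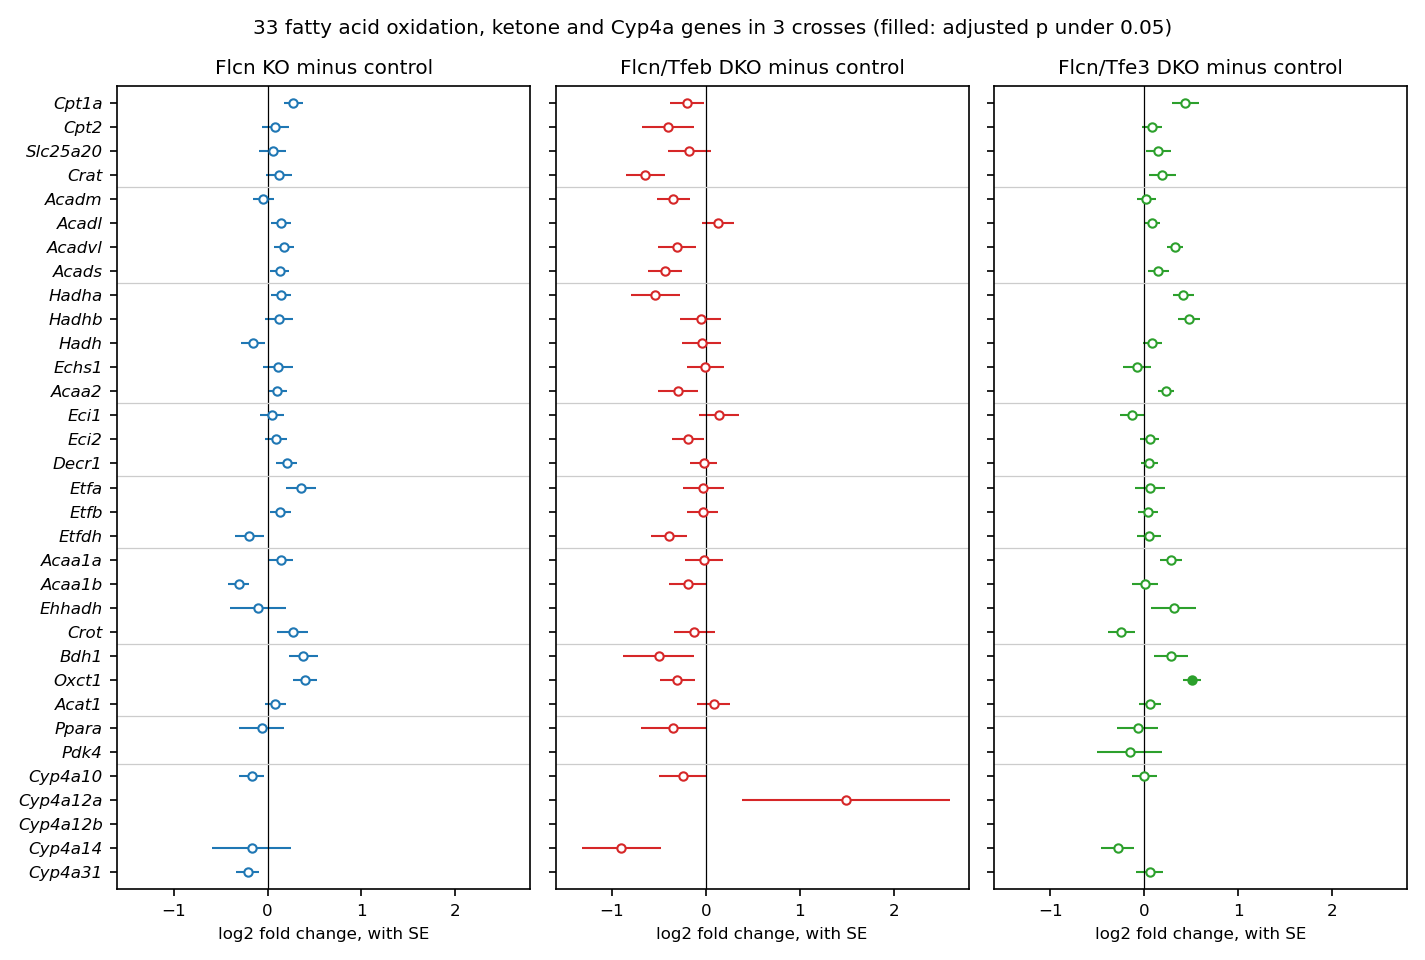
Log2 fold change of each member in the 3 crosses against the controls of its own cross, with members grouped by role; points are edgeR estimates and bars are standard errors. Most points of the Flcn/Tfeb cross lie below 0 (25 of 29) and most of the Flcn/Tfe3 cross above it (25 of 31), the filled point, Oxct1 in the Flcn/Tfe3 cross, is the only one past the adjusted threshold, and Cyp4a12a, at 1.50, has the widest bar.

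The promoter windows of the members that the comparisons turn on are shown from RefSeq (GRCm38.p6), 250 bases up to the annotated start site and 5′ to 3′ on the strand of the gene. They are shown for Oxct1, the member called in the Flcn/Tfe3 cross, and for Hadhb, which shares its upstream region with Hadha. Cpt1a and Acadvl are shown because every KO or DKO library lay above every control of its set in a cross. Crat and Etfdh, lower without overlap in the Flcn/Tfeb cross, are not shown, and no window was matched for Crat. Oxct1 was on chr15:4026178-4026427 (+), Hadhb on chr5:30155003-30155252 (+), Cpt1a on chr19:3323051-3323300 (+) and Acadvl on chr11:70015429-70015678 (−). Capitals mark AGGTCA, the half-site letters of PPARα and related receptors, or its reverse complement TGACCT in Cpt1a and Acadvl, and in Hadhb the 228 bases that also belong to the promoter window of Hadha.
Oxct1: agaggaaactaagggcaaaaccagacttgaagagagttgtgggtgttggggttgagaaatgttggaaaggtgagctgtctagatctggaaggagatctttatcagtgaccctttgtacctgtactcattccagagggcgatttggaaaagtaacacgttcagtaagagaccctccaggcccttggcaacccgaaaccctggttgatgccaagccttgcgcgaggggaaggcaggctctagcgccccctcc
Hadhb: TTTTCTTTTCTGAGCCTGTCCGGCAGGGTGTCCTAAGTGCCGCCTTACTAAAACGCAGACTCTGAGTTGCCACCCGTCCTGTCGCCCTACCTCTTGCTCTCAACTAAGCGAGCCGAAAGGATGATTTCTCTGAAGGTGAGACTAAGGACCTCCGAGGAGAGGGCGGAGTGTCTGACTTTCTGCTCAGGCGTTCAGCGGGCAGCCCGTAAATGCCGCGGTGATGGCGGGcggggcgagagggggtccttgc
Cpt1a: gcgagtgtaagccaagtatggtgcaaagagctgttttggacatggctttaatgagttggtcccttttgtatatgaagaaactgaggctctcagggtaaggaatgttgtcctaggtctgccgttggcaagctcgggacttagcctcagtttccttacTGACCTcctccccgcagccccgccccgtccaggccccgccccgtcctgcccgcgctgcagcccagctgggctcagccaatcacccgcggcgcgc
Acadvl: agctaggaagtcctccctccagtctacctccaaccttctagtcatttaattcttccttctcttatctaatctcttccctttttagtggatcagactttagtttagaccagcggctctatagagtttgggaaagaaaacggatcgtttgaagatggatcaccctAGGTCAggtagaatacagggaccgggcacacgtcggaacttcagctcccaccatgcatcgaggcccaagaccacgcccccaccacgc

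Hadha and Hadhb, which encode the α and β subunits of the mitochondrial trifunctional protein, run in opposite directions from start sites at positions 30154980 and 30155253 of chromosome 5, with 272 bases between them. These start sites are RefSeq's, while the gene intervals given with the genes below are the outermost limits of the GENCODE annotation, so a start site can lie inside the interval. Promoter windows were matched for 24 of the 33 members (25 windows, 250 bases before to 50 after the start), beside 32851 windows of all genes. AGGTCA was found on either strand in 4 members (Acadm, Acadvl, Cpt1a and Echs1), 16% of the member windows and 16.3% of all windows. The direct repeat of AGGTCA with any single base between the copies, which PPARα binds with RXR, was in 0 member windows and in 0.0396% of all. CACGTG, the core of the motif bound by TFEB and TFE3, was in 0 member windows and in 7.15% of all, while GGGCGG, the GC box, was in 18 member windows (72%) and in 35.7% of all. These matches describe letters in a short window and do not show a binding site.

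Oxct1 encodes succinyl-CoA:3-ketoacid CoA transferase, the enzyme that lets extrahepatic tissue burn ketone bodies (chr15:4026383-4155344, mm10). In set C, its control libraries held 256, 238, 328, 293 and 292 CPM and the Flcn/Tfe3 DKO libraries 478, 454, 432 and 389 CPM, with no overlap. In that set 4 members (Oxct1, Cpt1a, Acadvl and Hadha) had every DKO library above every control, as did 3.37% of 12456 genes, and 0 had every one below, as did 2.43%. In set B, the Oxct1 controls held 407, 403 and 541 CPM and the 6 DKO libraries 512 to 674 CPM with a median of 568, so that the highest control stood among the DKO libraries. Fitted over both sets, Oxct1 rose by 0.51 ± 0.10 (SE) on the log2 scale (edgeR, p = 3.19e-05, adjusted p = 0.0133), and the exact permutation p within sets was 0.000283.

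Oxct1 was called in set C alone but not in set B alone, and the difference between the sets was not tested. Set C gave a log2 fold change of 0.62 for Oxct1 (adjusted p = 0.0154, edgeR) and set B gave 0.36 (adjusted p = 0.752). In set C the share of alignments that were not unique was 35 to 42.5% in the controls and 33.7 to 36.1% in the DKO libraries, and between libraries Oxct1 was lower where that share was higher (below). With the share added to the model, a step decided on once the data had been seen, Oxct1 in set C had a log2 fold change of 0.41 ± 0.17 (edgeR, p = 0.0268, adjusted p = 1.0). Without the DKO library labelled replicate 7 the adjusted p over both sets was 0.0507. With Xist, which marks female libraries, as a covariate it was 0.0954 at a fold change of 0.45.

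In the Flcn cross, Oxct1 stood at 361, 402, 448, 415 and 507 CPM in the controls and at 495, 662, 542, 517 and 599 CPM in the Flcn KO libraries. A single control, at 507 CPM, was above the lowest KO library. The log2 fold change of Oxct1 was 0.40 ± 0.13 (edgeR, p = 0.00504, adjusted p = 0.272; exact permutation p = 0.0159). The share of alignments not unique was higher in those KO libraries, at 41.0 to 44.1% against 36.7 to 42.0%, and with it as a covariate the fold change of Oxct1 was 0.49.

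In the Flcn/Tfeb cross, Oxct1 was at 430, 386 and 561 CPM in the controls and at 424, 362, 355 and 358 CPM in the DKO libraries. The first DKO library lay between the controls and the other 3 lay below them. The log2 fold change was -0.30 ± 0.19 (edgeR, p = 0.129, adjusted p = 0.798). The difference of the Oxct1 effect between the Flcn/Tfe3 and Flcn/Tfeb crosses was 0.80 ± 0.19 (p = 0.000241) and that between the Flcn/Tfeb and Flcn crosses was -0.71 ± 0.21 (p = 0.00287). Neither passed the adjusted threshold (edgeR interaction contrasts, adjusted p = 0.259 and 0.641).

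Bdh1, 3-hydroxybutyrate dehydrogenase, which interconverts the main ketone bodies, stood at 27.6, 40.9, 37.7, 28.0 and 45.5 CPM in the controls of the Flcn cross and at 50.6, 51.9, 47.5, 42.0 and 41.4 CPM in Flcn KO. The KO libraries sat in the upper part of the range, with 2 of them below the highest control. Bdh1 had a log2 fold change of 0.38 ± 0.15 (edgeR, p = 0.0232, adjusted p = 0.445). In the Flcn/Tfe3 cross it was 0.29 ± 0.18 (p = 0.126), and the controls of set C alone spread from 18.1 to 72.6 CPM. For Flcn/Tfeb DKO it was -0.50 ± 0.38 (p = 0.208), with controls at 32.1, 16.3 and 48.6 CPM and DKO libraries at 36.5, 14.9, 18.3 and 23.2 CPM.

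Acat1, the mitochondrial acetoacetyl-CoA thiolase that splits the last ketone intermediate, had log2 fold changes of 0.08, 0.08 and 0.06 in the 3 crosses, with unadjusted edgeR p-values of 0.478, 0.647 and 0.602. The Flcn/Tfe3 value of Acat1 was made of 0.31 in set B alone (edgeR, p = 0.0740) and -0.19 in set C alone (p = 0.189).

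**Figure D2:**
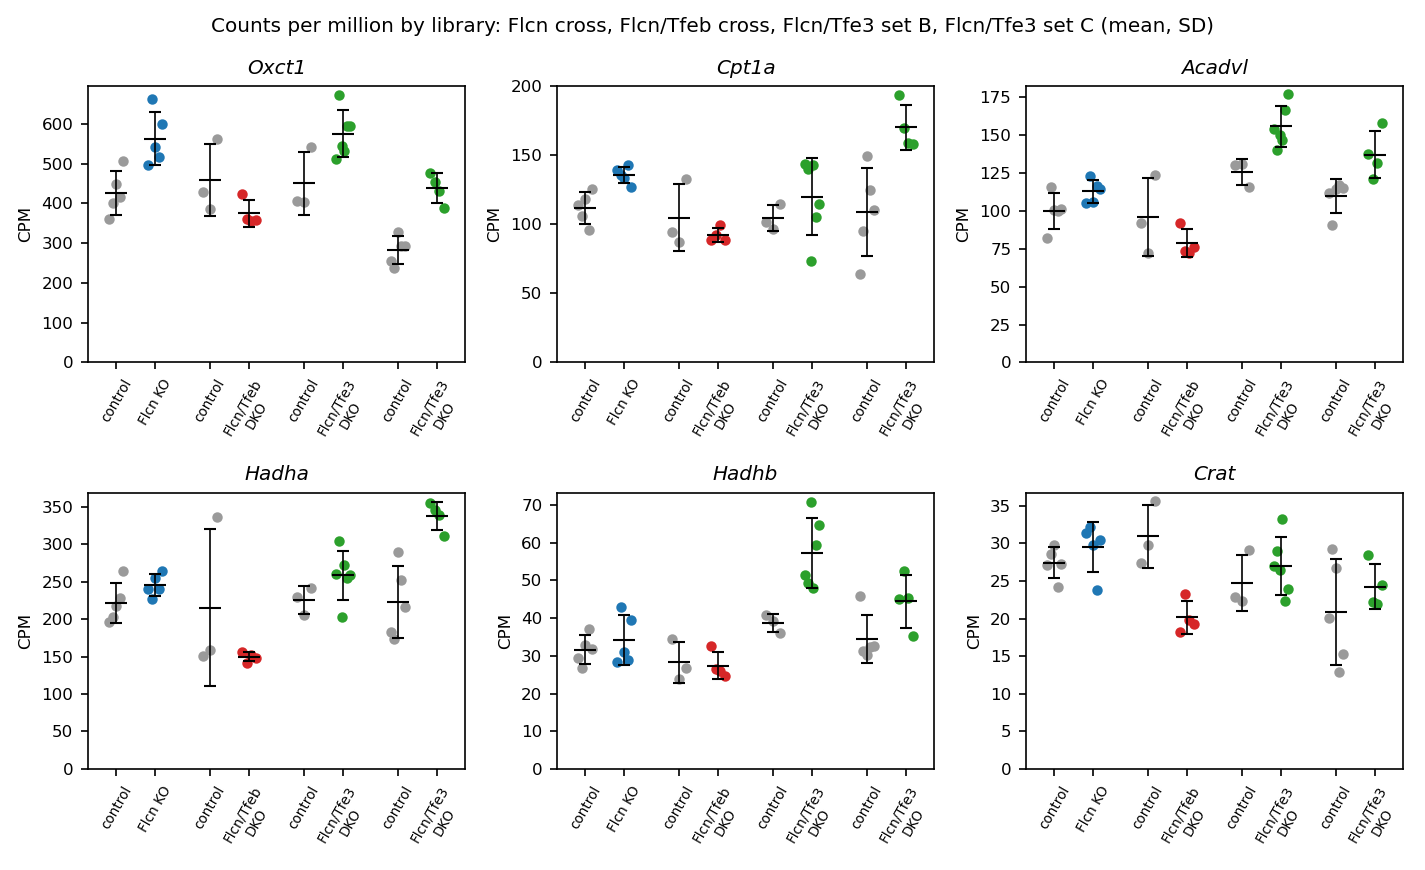
CPM by library of Oxct1, Cpt1a, Acadvl, Hadha, Hadhb and Crat, with control libraries in grey and knockout libraries in colour for the Flcn cross, the Flcn/Tfeb cross and sets B and C of the Flcn/Tfe3 cross; bars are the mean and SD of each group. The groups separate fully for Oxct1 in set C (238 to 328 against 389 to 478 CPM), Cpt1a in the Flcn cross and in set C, Acadvl in sets B and C, Hadha in set C, Hadhb in set B and, with the DKO libraries lower, Crat in the Flcn/Tfeb cross, while a single control of the Flcn/Tfeb cross, at 336 CPM, lifts the mean of Hadha in that group.

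In the carnitine shuttle, Cpt1a, carnitine palmitoyltransferase 1A, couples long chains to carnitine and sets the pace of oxidation (chr19:3322334-3385733, mm10). Among the shuttle genes it had the largest log2 fold change in the fits of the Flcn and Flcn/Tfe3 crosses. In the Flcn cross, Cpt1a was at 114, 106, 118, 95.8 and 126 CPM in the controls and at 139, 136, 133, 143 and 127 CPM in the KO libraries. Every KO library was above every control (127 against 126 CPM at the nearest pair), which 1.69% of all genes tested also showed in that direction. Cpt1a was the only member whose groups did not overlap in that cross, and 0 members had all KO libraries below (0.696%). Its log2 fold change was 0.28 ± 0.11 (edgeR, p = 0.0172, adjusted p = 0.416), and the exact permutation p of 0.00794 is the smallest that 252 regroupings can give.

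In set C, the Cpt1a controls were at 64.3, 95.3, 149, 125 and 111 CPM and the Flcn/Tfe3 DKO libraries at 194, 170, 159 and 158 CPM, again without overlap, as for Oxct1 in that set. In set B, the Cpt1a controls were at 102, 96.4 and 115 CPM and the DKO libraries spanned 73.1 to 143 CPM, on both sides of the controls. Over both sets the log2 fold change of Cpt1a was 0.44 ± 0.15 (edgeR, p = 0.00599, adjusted p = 0.369). Set C alone gave 0.62 (adjusted p = 0.0507) and set B 0.21 (adjusted p = 0.794). With the share of alignments not unique as a covariate, set C gave 0.13 ± 0.21 for Cpt1a (edgeR, p = 0.551).

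Crat, carnitine acetyltransferase, which buffers acetyl-CoA by moving acetyl groups onto carnitine, was lower in every Flcn/Tfeb DKO library than in the controls of that cross. The controls held 27.4, 29.8 and 35.6 CPM of Crat and the DKO libraries 18.3, 23.3, 19.8 and 19.3 CPM. Set C controls of the Flcn/Tfe3 cross reached down to 12.9 CPM. The log2 fold change was -0.64 ± 0.21 (edgeR, p = 0.0106, adjusted p = 0.798), and the exact permutation p of 0.0286 is the smallest that 35 regroupings can give. Crat and Etfdh, 2 of the 33 members, had every DKO library of the Flcn/Tfeb cross below every control, and 2.74% of all genes did, while 0 members were above, against 2.9%. The Crat effect in this cross differed from that in the Flcn cross by -0.77 ± 0.21 (p = 0.00167, adjusted p = 0.623) and that in the Flcn/Tfe3 cross exceeded it by 0.82 ± 0.26 (p = 0.00377, adjusted p = 0.289). Crat in the Flcn cross was at 24.3 to 29.7 CPM in controls and 23.8 to 32.1 CPM in KO libraries, and its log2 fold change was 0.12.

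Cpt2, which returns the chain to CoA inside the mitochondrion, had log2 fold changes of 0.08, -0.40 and 0.08 in the 3 crosses. Slc25a20, the carrier that exchanges acylcarnitine for carnitine, had 0.06, -0.18 and 0.15. The Flcn/Tfe3 value of Slc25a20 was made of 0.43 in set B alone (edgeR, p = 0.0247, adjusted p = 0.752) and -0.14 in set C alone (p = 0.392). That of Cpt2 was made of 0.18 in set B alone and -0.04 in set C alone. Of the 4 shuttle genes, 4, 0 and 4 lay above 0 in these crosses, with medians of 0.10, -0.30 and 0.17, and 0 passed the adjusted threshold in any of them.

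The acyl-CoA dehydrogenases take the first electrons from chains of different length. Among them Acadvl, the enzyme for very long chains, had the largest log2 fold change in the Flcn/Tfe3 cross. In set B, Acadvl was at 131, 131 and 116 CPM in the controls and at 140 to 177 CPM in the 6 Flcn/Tfe3 DKO libraries, with a median of 152. In set C, it was at 112, 90.4, 115, 117 and 115 CPM in the controls and at 138, 121, 131 and 158 CPM in the DKO libraries. Acadvl was the only member with every DKO library above every control of its own set, as 0.273% of all genes were, and 0 were below, as 0.0321% were. Its exact permutation p of 9.45e-05 is the smallest that 10584 regroupings can give. The fitted log2 fold change of Acadvl was 0.32 ± 0.08 (edgeR, p = 0.000833, adjusted p = 0.128), with 0.32 in set B alone and 0.30 in set C alone.

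With the share of alignments not unique as a covariate, set C gave 0.15 ± 0.19 for Acadvl (edgeR, p = 0.418). In the Flcn cross Acadvl was at 82.4, 116, 100, 100 and 102 CPM in controls and at 105, 123, 106, 117 and 115 CPM in KO libraries, where only the control at 116 CPM reached into the KO range, and the log2 fold change was 0.17 ± 0.11 (p = 0.127). Acadvl controls of the Flcn/Tfeb cross were at 92.2, 72.4 and 124 CPM and the DKO libraries at 92.1, 73.8, 71.9 and 76.3 CPM, which overlap, and the log2 fold change was -0.31 ± 0.20 (p = 0.155).

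Acads, the short-chain enzyme, was at 229, 149 and 195 CPM in the Flcn/Tfeb controls and at 159, 135, 124 and 151 CPM in the DKO libraries. Of the DKO libraries, 2 lay above the lowest control. Acads had a log2 fold change of -0.44 ± 0.18 (edgeR, p = 0.0381, adjusted p = 0.798), beside 0.13 ± 0.10 in the Flcn cross and 0.15 ± 0.11 in the Flcn/Tfe3 cross. Without the first control of the Flcn/Tfeb cross the Acads value there was -0.28, and leaving out single libraries moved it between -0.58 and -0.28. Acadm, the medium-chain enzyme, had -0.05, -0.35 and 0.02 in the 3 crosses, and Acadl, the long-chain enzyme, had 0.15, 0.13 and 0.09, all at an unadjusted p above 0.05.

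Hadha carries the hydratase and long-chain dehydrogenase activities of the trifunctional protein (chr5:30118304-30155162, mm10). In set C, Hadha was at 183, 174, 289, 252 and 216 CPM in the controls and at 355, 345, 339 and 311 CPM in the Flcn/Tfe3 DKO libraries, without overlap, as in 3.37% of all genes. In set B, the Hadha controls were at 230, 205 and 241 CPM and the DKO libraries at 203 to 304 CPM, with a median of 259, so that the lowest DKO library was below every control. Over both sets the log2 fold change of Hadha was 0.42 ± 0.11 (edgeR, p = 0.00100, adjusted p = 0.139; exact permutation p = 0.00302).

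Set C alone gave 0.58 for Hadha (adjusted p = 0.0326, edgeR) and set B 0.21 (adjusted p = 0.762). With the share of alignments not unique as a covariate set C gave 0.20 ± 0.18 (p = 0.272, adjusted p = 1.0). In the Flcn/Tfeb cross the Hadha controls were at 151, 158 and 336 CPM and the DKO libraries at 156, 142, 152 and 149 CPM. The third control alone set the difference: the log2 fold change was -0.54 ± 0.26 (edgeR, p = 0.0622) with it and -0.05 ± 0.11 (p = 0.659) without it. That library had 41.2% of its alignments not unique, where the other controls had 47.3 and 49.4% and the DKO libraries 46.4 to 48.5%. Hadha in the Flcn cross was at 196 to 264 CPM in controls and 227 to 265 CPM in KO libraries, with a log2 fold change of 0.14 ± 0.11. With the share as a covariate, Hadha had 0.27 ± 0.11 in the Flcn cross (edgeR, p = 0.0227, adjusted p = 0.493) and -0.20 ± 0.13 in the Flcn/Tfeb cross (p = 0.141).

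Hadhb, the thiolase subunit of the same protein (chr5:30155248-30184593, mm10), separated the groups in set B and overlapped in set C. In set B, Hadhb was at 40.8, 39.3 and 36.0 CPM in the controls and at 47.9 to 70.9 CPM in the DKO libraries, with a median of 55.5, without overlap. In that set 3 members (Hadhb, Acadvl and Slc25a20) had every DKO library above every control, as did 1.69% of 12456 genes, and 0 had every one below, as did 1.28%. In set C, it was at 45.9, 31.3, 30.3, 32.3 and 32.5 CPM in the controls and at 45.1, 52.5, 45.3 and 35.3 CPM in the DKO libraries, where the control at 45.9 CPM stood among the DKO values. The log2 fold change of Hadhb over both sets was 0.48 ± 0.12 (edgeR, p = 0.000359, adjusted p = 0.0745; exact permutation p = 0.00151). Set B alone gave 0.57 and set C 0.35, and with the share of alignments not unique as a covariate set C gave 0.64 ± 0.25 (p = 0.0166, adjusted p = 1.0). In the Flcn and Flcn/Tfeb crosses the fold changes of Hadhb were 0.12 ± 0.15 and -0.05 ± 0.22.

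Acaa2, the thiolase that closes the cycle for medium chains, was at 208, 223 and 220 CPM in the set B controls and at 223 to 269 CPM in the DKO libraries, and at 165, 150, 178, 180 and 218 CPM and 200, 195, 216 and 231 CPM in set C. The lowest set B DKO library was level with the highest control, and in set C a single control reached the DKO range. Its log2 fold change in the Flcn/Tfe3 cross was 0.24 ± 0.08 (edgeR, p = 0.00975, adjusted p = 0.428; exact permutation p = 0.00293), beside 0.10 and -0.29 in the Flcn and Flcn/Tfeb crosses. Hadh, the short-chain dehydrogenase of the cycle, had -0.15, -0.05 and 0.08 in the 3 crosses, and Echs1, the short-chain hydratase, had 0.12, -0.01 and -0.08. The Flcn/Tfe3 value of Echs1 was made of 0.33 in set B alone (edgeR, p = 0.0532) and -0.47 in set C alone (p = 0.0105, adjusted p = 0.109). With the share of alignments not unique as a covariate, Echs1 had -0.23 ± 0.11 in the Flcn cross (edgeR, p = 0.0546), -0.12 in the Flcn/Tfeb cross and 0.19 ± 0.18 in set C (p = 0.287).

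The auxiliary enzymes Eci1, Eci2 and Decr1, which shift or reduce double bonds so that unsaturated chains can enter the cycle, had fold changes between -0.19 and 0.20 on the log2 scale in the 3 crosses, and their lowest unadjusted edgeR p-value was 0.0767, for Decr1 in the Flcn cross. The Flcn/Tfe3 value of Eci1 was made of 0.23 in set B alone (edgeR, p = 0.129) and -0.51 in set C alone (p = 0.00506, adjusted p = 0.0735). With the share of alignments not unique as a covariate, Eci1 in set C had -0.04. With that covariate, Eci2 in the Flcn cross had 0.30 ± 0.12 (edgeR, p = 0.0203, adjusted p = 0.478). Electrons from the dehydrogenases pass through the flavoprotein subunits encoded by Etfa and Etfb to the oxidoreductase encoded by Etfdh. Etfa was at 40.5, 55.5, 68.0, 43.3 and 39.0 CPM in the controls of the Flcn cross and at 75.2, 68.3, 54.1, 56.4 and 57.8 CPM in the KO libraries. Controls at 55.5 and 68.0 CPM stood among the KO libraries. Etfa had a log2 fold change of 0.36 ± 0.16 (edgeR, p = 0.0365, adjusted p = 0.502), beside -0.03 and 0.06 in the Flcn/Tfeb and Flcn/Tfe3 crosses. The Flcn/Tfe3 value of Etfa was made of 0.47 in set B alone (edgeR, p = 0.0266, adjusted p = 0.752) and -0.34 in set C alone (p = 0.0629, adjusted p = 0.259). Etfb had 0.14, -0.03 and 0.04, and 42.4% of the windows near its 3′ end were shared with Gm45233, so its counts are uncertain.

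Etfdh was at 36.8, 30.4 and 30.5 CPM in the Flcn/Tfeb controls and at 24.2, 23.3, 24.0 and 27.9 CPM in the DKO libraries, all below the controls, with a log2 fold change of -0.39 ± 0.20 (edgeR, p = 0.0700, adjusted p = 0.798; exact permutation p = 0.0571). In the Flcn and Flcn/Tfe3 crosses the fold changes of Etfdh were -0.19 ± 0.16 and 0.05 ± 0.13.

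Among the peroxisomal genes, Acaa1a and Acaa1b encode near-identical thiolases whose 3′ ends share sequence: 22.4% and 19.2% of the 100-base windows in the last 500 bases of the transcript were found in the other gene, so the split of reads between them is uncertain. Acaa1b was at 125, 115, 126, 104 and 131 CPM in the controls of the Flcn cross and at 97.4, 94.4, 83.9, 94.7 and 114 CPM in the KO libraries. Of the KO libraries, 1 was above the lowest control. The log2 fold change of Acaa1b was -0.31 ± 0.11 (edgeR, p = 0.0130, adjusted p = 0.377; exact permutation p = 0.0159), and Acaa1a had 0.14 ± 0.13 in the same libraries.

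In the Flcn/Tfe3 cross Acaa1a had a log2 fold change of 0.29 ± 0.12 (edgeR, p = 0.0250, adjusted p = 0.563) and Acaa1b had 0.01 ± 0.14. The value of Acaa1b was made of -0.29 in set B alone and 0.27 in set C alone. Acaa1a was at 42.3, 37.1 and 64.0 CPM in the set B controls and at 44.6 to 62.8 CPM in the DKO libraries, and at 49, 43.1, 38.8, 60.8 and 53.7 CPM and 58.0, 56.8, 73.0 and 50.8 CPM in set C. In both sets the highest control lay within or above the DKO range.

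Crot, which makes medium-chain acylcarnitines for export from the peroxisome, had log2 fold changes of 0.27 ± 0.17 in the Flcn cross and -0.24 ± 0.14 in the Flcn/Tfe3 cross, a difference of -0.51 ± 0.23 (edgeR interaction, p = 0.0378, adjusted p = 0.661). With the share of alignments not unique as a covariate, Crot in the Flcn cross turned to -0.08 ± 0.14 (edgeR, p = 0.546). Its Flcn/Tfe3 value was 0.07 in set B alone and -0.57 in set C alone (edgeR, p = 0.00643, adjusted p = 0.0827). In set C with that covariate, Crot had -0.35 ± 0.26 (p = 0.188). Crot controls of the Flcn cross stood at 60.01, 63.2, 52.6, 35.9 and 34.3 CPM and KO libraries at 61.7, 57.4, 61.1, 64.0 and 49.3 CPM. In set C, Crot was at 54.3, 38.2, 44.1, 54.7 and 47.0 CPM in the controls and at 26.5, 43.1, 37.7 and 23.1 CPM in the DKO libraries, with a single DKO library inside the range of the controls. In set B the controls were at 43.5, 43.4 and 36.5 CPM and the DKO libraries at 33.7 to 54.4 CPM. Ehhadh, the peroxisomal bifunctional enzyme, was low everywhere, from 1.15 to 11.6 CPM, and was left out of the edgeR fit in the Flcn/Tfeb cross. Its fold changes were -0.10 ± 0.29 and 0.31 ± 0.24 in the Flcn and Flcn/Tfe3 crosses, which differed by 0.43 (edgeR interaction, p = 0.287). Ehhadh controls were at 5.72, 10, 5.84, 4.45 and 4.70 CPM in the Flcn cross and KO libraries at 5.30, 5.74, 6.99, 3.76 and 5.57 CPM. In set B they were at 6.21, 4.85 and 5.87 CPM and 6.03 to 9.06 CPM, and in set C at 10.9, 9.73, 7.405, 2.28 and 6.27 CPM and 7.60, 4.02, 11.6 and 9.34 CPM, with overlap in each.

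Both regulators were scarce. Ppara, which encodes PPARα, ranged from 4.14 to 22.6 CPM over the 35 libraries, and its log2 fold changes were -0.06 ± 0.24, -0.35 ± 0.35 and -0.07 ± 0.22 in the 3 crosses. Ppara in the Flcn cross was at 13.3, 10.5, 13.3, 18.3 and 22.6 CPM in the controls and at 11.1, 14.6, 19.9, 20.1 and 11.7 CPM in the KO libraries, and in the Flcn/Tfeb cross at 9.34, 11.7 and 20.1 CPM and at 12.7, 6.48, 11.4 and 13.4 CPM. In set B the Ppara controls were at 13.4, 7.27 and 11.2 CPM and the DKO libraries at 4.14 to 11.5 CPM, with a median of 7.89. In set C they were at 8.31, 9.04, 14.1, 18.2 and 10.6 CPM and at 14.6, 14.2, 12.2 and 18.7 CPM. The groups overlapped in every cross and set, and Ppara had -0.47 in set B alone and 0.27 in set C alone. Pdk4, a PPARα target that shuts pyruvate out of the mitochondrion when fat is burned, had 0 to 21 counts in a library, from 0 to 5.60 CPM, with 14 libraries at or under 3 counts, and passed the filter in the Flcn/Tfe3 cross only, with a fold change of -0.16 ± 0.34. The exact permutation p of Pdk4 was 0.746 in the Flcn and 0.20 in the Flcn/Tfeb cross, and the groups overlapped in each. In the Flcn cross, Pdk4 had 7, 2, 0, 10 and 2 counts in the controls and 0, 10, 3, 2 and 1 in the KO libraries, and in the Flcn/Tfeb cross 2, 2 and 5 counts in the controls and 1, 1, 3 and 3 in the DKO libraries. In set B it had 10, 7 and 21 counts in the controls and 4 to 18 in the DKO libraries, and in set C 2, 5, 15, 7 and 10 counts and 7, 16, 13 and 6.

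The 5 Cyp4a genes lie side by side on chromosome 4, between 115299046 (Cyp4a12a) and 115579015 (Cyp4a31). Cyp4a31 showed the widest difference of any member (chr4:115563649-115579015, mm10). In the Flcn/Tfeb cross its controls were at 1.75, 35.6 and 42.0 CPM and its DKO libraries at 3.18, 2.59, 3.43 and 2.75 CPM. In every other group Cyp4a31 was at 36.8 CPM or more: 42.8 to 60.002 CPM and 39.7 to 45.2 CPM in controls and KO libraries of the Flcn cross, 72.9 to 113 CPM and 52.2 to 92.7 CPM in set B, and 36.8 to 68.4 CPM and 60.8 to 89.0 CPM in set C. The first control of the Flcn/Tfeb cross therefore stood with the 4 DKO libraries, apart from the other 30 libraries (3.43 against 35.6 CPM at the nearest pair).

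Because of that control, Cyp4a31 was filtered out for low counts within the Flcn/Tfeb cross. Without the filter its log2 fold change was -3.15 ± 0.58 (edgeR, p = 3.03e-05, adjusted p = 0.586). Without the first control, with 2 controls left, Cyp4a31 passed the filter, at -3.68 ± 0.28 (edgeR, adjusted p = 0.00265). That control was the only one at the level of the DKO libraries, so this p-value follows from leaving it out and is no separate support. With all 3 controls the groups overlapped and the exact permutation p was 0.143. Cyp4a31 passed the threshold in the difference of effects between the Flcn/Tfe3 and Flcn/Tfeb crosses, at 3.22 ± 0.56 (edgeR interaction, p = 3.41e-06, adjusted p = 0.0155), as 1 of 32 members tested, where 0.022% of 13637 genes were called. The difference between the Flcn/Tfeb and Flcn crosses was -2.96 ± 0.60 (p = 7.74e-05, adjusted p = 0.212). Leaving out single libraries moved the first of these adjusted p-values of Cyp4a31 between 1.12e-06 and 0.451, above the threshold without the third control of the Flcn/Tfeb cross and without any of its 4 DKO libraries.

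In a search made after these values were seen, 1 of 13728 genes, Cyp4a31 itself, had these 5 libraries more than 4-fold below or above all other 30. None of the 100-base windows near the 3′ end of Cyp4a31 (0%) was shared with another gene, while Cyp4a32, no member, shared 43.1% of its own end windows with Cyp4a10 and Cyp4a31. Its neighbour Cyp4a10 did not separate these libraries: Cyp4a10 stood at 67.1 CPM in the first Flcn/Tfeb control, at 52.5 and 122 CPM in the others and at 68.7, 69.9, 70.8 and 67.3 CPM in the DKO libraries.

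**Figure D3:**
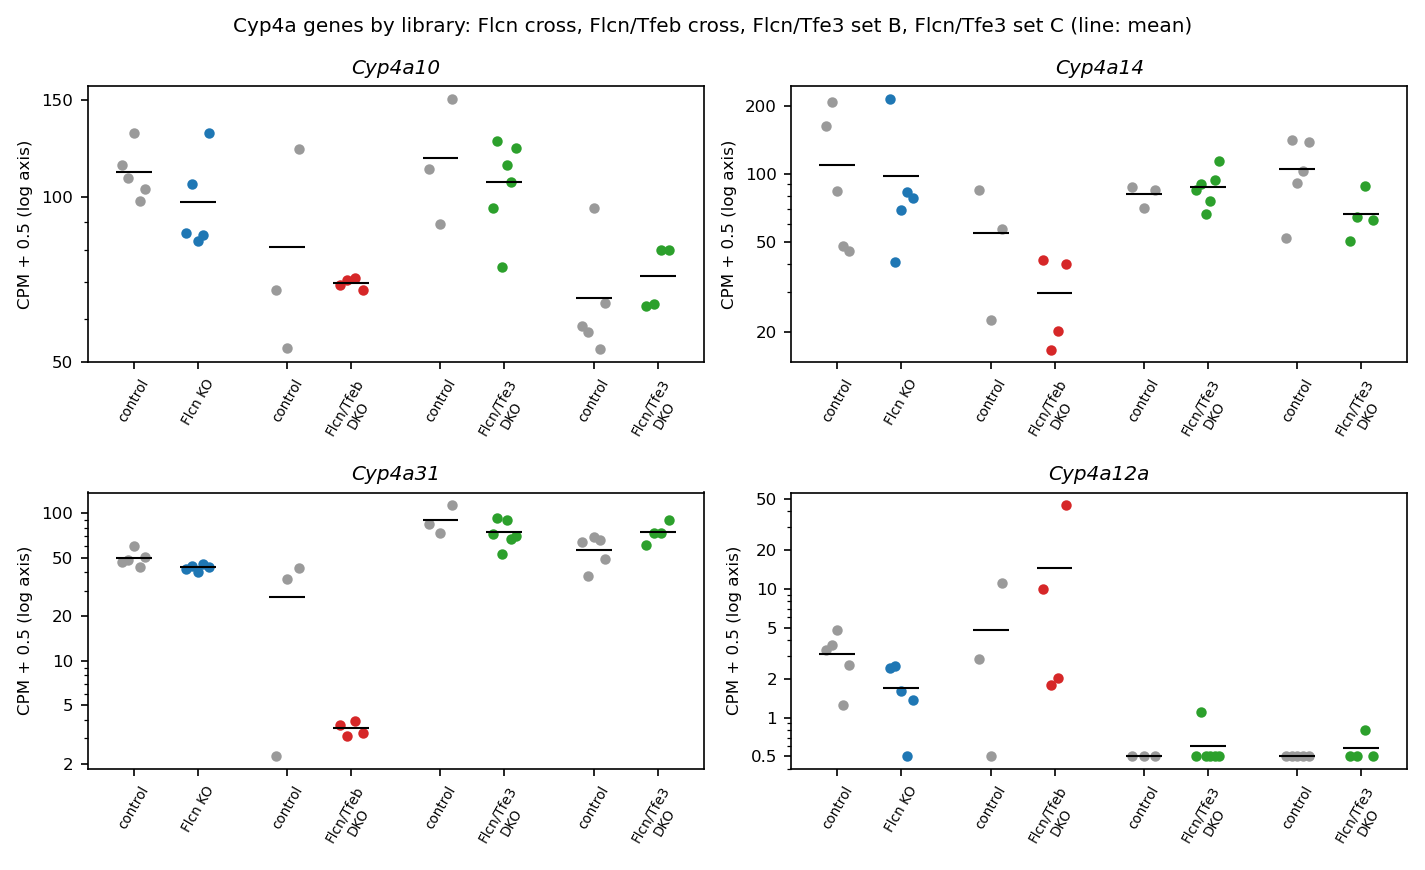
CPM + 0.5 by library, on a log axis, of Cyp4a10, Cyp4a14, Cyp4a31 and Cyp4a12a in the same groups, controls in grey and knockout libraries in colour. For Cyp4a31 the 4 Flcn/Tfeb DKO libraries and 1 of their controls lie at 1.75 to 3.43 CPM while all other libraries lie at 35.6 CPM or above, and Cyp4a12a is near the bottom of the axis in all but a few set A libraries.

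Cyp4a10, an ω-hydroxylase of the proximal tubule induced by PPARα, had log2 fold changes of -0.17 ± 0.13, -0.25 ± 0.25 and 0.00 ± 0.13 in the 3 crosses. In the Flcn cross Cyp4a10 was at 114, 108, 130, 97.5 and 103 CPM in controls and at 85.3, 105, 82.4, 84.7 and 130 CPM in KO libraries, of which 3 were below every control. In set B it was at 112, 88.7 and 150 CPM and 74.0 to 126 CPM, and in set C at 57.8, 56.3, 94.9, 52.5 and 63.5 CPM and 62.8, 63.4, 79.4 and 79.4 CPM, with overlap in both.

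Cyp4a14, a related hydroxylase, varied widely within groups. Cyp4a14 in the Flcn cross was at 163, 206, 83.4, 47.3 and 45.2 CPM in controls and at 214, 40.5, 68.8, 82.8 and 78.0 CPM in KO libraries. The Flcn/Tfeb libraries held 84.6, 22.2 and 56.6 CPM of Cyp4a14 in controls and 41.3, 16.2, 19.8 and 39.3 CPM in DKO kidneys. Both pairs of groups overlapped, and the fold changes were -0.17 ± 0.42 and -0.90 ± 0.42 (edgeR, p = 0.0575, adjusted p = 0.798). Leaving out single libraries moved the first between -0.69 and 0.21 and the second between -1.26 and -0.46. In set C the Cyp4a14 controls were at 51.6, 140, 90.3, 103 and 138 CPM and the DKO libraries at 49.8, 64.3, 88.2 and 62.2 CPM, and with set B (70.3 to 87.4 and 66.0 to 114 CPM) the fold change was -0.28 ± 0.18. It was 0.12 in set B alone and -0.68 in set C alone (edgeR, p = 0.00802, adjusted p = 0.0936).

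Cyp4a12a, a form known to be induced by androgens in the adult male kidney, was found almost only in set A. Cyp4a12a reached 44.1 CPM in the fourth Flcn/Tfeb DKO library, 10.6 CPM in the third control of that cross and 9.53 CPM in its first DKO library, and stayed at or below 4.25 CPM elsewhere in set A. In sets B and C its counts were 0 in 16 of 18 libraries, 2 in 1 DKO library and 1 in another, at or under the limit of 3 counts. It shared 28.4% of the windows near its 3′ end with Cyp4a12b, so the split between them is uncertain. Cyp4a12b had 3, 7, 4, 7 and 9 counts in the controls and 4, 18, 1, 0 and 7 in the KO libraries of the Flcn cross, and 0, 1 and 21 in the controls and 0, 2, 3 and 12 in the DKO libraries of the Flcn/Tfeb cross. In sets B and C it had 0 to 6 counts. Cyp4a12a was tested in the Flcn/Tfeb cross, where the fold change was 1.50 ± 1.11 (edgeR, p = 0.204), and Cyp4a12b in none of the 3 crosses. Leaving out single libraries moved that value of Cyp4a12a between 1.02 and 3.58, the latter without the third control, in the 5 fits that tested it.

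Differences between the crosses were tested as contrasts of their effects. Between the Flcn/Tfeb and Flcn crosses 0 of 32 members were called, where 0.0153% of 13049 genes were. At an unadjusted p under 0.05, 8 members were lower (Cpt1a, Crat, Acadvl, Acads, Hadha, Bdh1, Oxct1 and Cyp4a31), against 3.71% of all genes, and 0 were higher, against 2.24%, with DESeq2 calling 1 (Cyp4a31), against 0.0854% of 9366 genes. The median of the members was -0.29, against -0.03 for all genes. Between the Flcn/Tfe3 and Flcn crosses 0 of 31 were called, as were 0% of 13209 genes, with DESeq2 calling 0 of these and of all, an unadjusted p under 0.05 for 0 members higher (3.46%) and 1 lower (Crot, 3.94%), and a median of 0.07, against 0.02. Between the Flcn/Tfe3 and Flcn/Tfeb crosses, Cyp4a31 was called, 9 members were higher at an unadjusted p under 0.05 (7.57% of all genes) and 0 lower (4.60%), and the median was 0.30, against 0.00. DESeq2 called 2 (Cyp4a31 and Oxct1), against 0.0699% of 10017 genes. These contrasts share the effects of the same libraries and are not independent.

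The members higher in that last contrast were Cpt1a (0.63), Crat (0.82), Acadvl (0.62), Acads (0.57), Hadha (0.94), Hadhb (0.51), Acaa2 (0.51), Oxct1 (0.80) and Cyp4a31 (3.22), in log2 units. The third control of the Flcn/Tfeb cross, whose mean over the 33 genes stood highest of all libraries relative to the controls of its cross and set, weighed on both contrasts with that cross. Without it the median of the members in the Flcn/Tfeb cross moved from -0.19 to -0.054, and the difference from the Flcn/Tfe3 cross from 0.94 to 0.47 for Hadha, 0.62 to 0.39 for Acadvl, 0.51 to 0.29 for Acaa2, 0.63 to 0.42 for Cpt1a and 0.80 to 0.63 for Oxct1. For Crat, Acads and Hadhb it was then 0.71, 0.56 and 0.57. With the share of alignments not unique as a covariate, the median in the Flcn/Tfeb cross was -0.10. Without the same control, the difference between the Flcn/Tfeb and Flcn crosses moved from -0.69 to -0.19 for Hadha, from -0.89 to -0.42 for Bdh1, from -0.49 to -0.24 for Acadvl and from -0.48 to -0.25 for Cpt1a. For Crat it was then -0.64 and for Oxct1 -0.52. Within the Flcn/Tfeb cross, leaving that control out moved Oxct1 from -0.30 to -0.13, Bdh1 from -0.50 to -0.04, Acadvl from -0.31 to -0.07, Acaa2 from -0.29 to -0.06, Cpt2 from -0.40 to 0.02 and Ppara from -0.35 to 0.09, in each case the highest value that leaving out any single library gave.

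Of 74 other genes of fatty acid and ketone metabolism, from a list that held the acyl-CoA synthetases, thioesterases, peroxisomal oxidases, lipid droplet and synthesis genes, 67, 67 and 68 were tested in the 3 crosses and 0 were called in any of them. At an unadjusted p under 0.05, 3, 1 and 3 were higher in the 3 crosses while 4, 0 and 3 were lower, with medians of -0.02, -0.08 and -0.01. Of the genes of this list reported here, low p-values in the Flcn cross were those of Acsl4, an acyl-CoA synthetase for arachidonic acid (0.36 ± 0.12, p = 0.00974), and Acacb, the acetyl-CoA carboxylase whose malonyl-CoA inhibits carnitine palmitoyltransferase 1 (0.65 ± 0.26, p = 0.0225). Lower values in that cross, named after they were seen, were those of Pecr, a peroxisomal enoyl-CoA reductase (-0.26 ± 0.11, p = 0.0238), Amacr, a racemase for branched chains (-0.72 ± 0.33, p = 0.0430), and Hsd17b4, the peroxisomal multifunctional enzyme (-0.34 ± 0.16, p = 0.0431). Low p-values in the Flcn/Tfeb cross, in either direction, were those of Decr2, the peroxisomal dienoyl-CoA reductase (0.41 ± 0.17, p = 0.0392), Slc25a1, the mitochondrial citrate carrier (-0.82 ± 0.38, p = 0.0518), and Acsl4 (-0.64 ± 0.30, p = 0.0593). Those in the Flcn/Tfe3 cross, again in either direction, were of Acot1, an acyl-CoA thioesterase induced by PPARα (0.36 ± 0.09, p = 0.000432, adjusted p = 0.0828, edgeR), Acsm1, a medium-chain acyl-CoA synthetase (-0.50 ± 0.13, p = 0.00106, adjusted p = 0.144), and Cd36, a fatty acid transporter (-0.56 ± 0.21, p = 0.0123).

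Markers of the cell types that the tissue could hold moved with some of these comparisons. Of the 25 proximal tubule markers, 1 fell past the threshold in the Flcn cross and 1 in the Flcn/Tfe3 cross (6 lower in each, and 1 and 0 higher, at an unadjusted p under 0.05, edgeR), with medians of -0.20 and -0.15, and the median in the Flcn/Tfeb cross was -0.22. Their summed level was 5276 to 6486 CPM in Flcn KO against 5322 to 8135 CPM, 5582 to 6747 CPM in Flcn/Tfeb DKO against 5354 to 7095 CPM, 4790 to 5600 CPM in set B DKO against 4875 to 5832 CPM, and 4137 to 4698 CPM in set C DKO against 5179 to 6288 CPM, without overlap in set C alone. In set C alone Crot, Eci1, Echs1 and Cyp4a14 were lower, as these summed markers were. Oxct1, Cpt1a, Hadha, Acadvl and Cyp4a31 were higher there. The 8 liver markers had medians of 1.18 in the Flcn/Tfeb and -1.72 in the Flcn/Tfe3 cross, and in the latter 7 were lower at an unadjusted p under 0.05 and 0 were called, and their sum spanned 209 to 4732 CPM over all libraries. Of 10 collecting duct markers, from a segment in which the Cre acts, 2 rose past the threshold in the Flcn cross (unadjusted p under 0.05 for 5 higher and 1 lower, median 0.42), with a summed level of 623 to 807 CPM in Flcn KO against 502 to 667 CPM. In that cross the median was -0.51 over the 5 nephron progenitor markers tested (3 lower at an unadjusted p under 0.05, 0 called, summed level 39.7 to 54.5 against 52.0 to 60.1 CPM) and 0.41 over 6 red cell markers (1 higher). Slc4a1 was in both the collecting duct and the red cell list. The red cell median was -0.63 in the Flcn/Tfe3 cross (5 lower, 0 called), and in set C the sum was 1409 to 1850 CPM in DKO against 2083 to 7580 CPM in controls, without overlap. Of 8 thick limb and distal tubule markers, from other segments with the Cre, 1 was called higher in the Flcn and 1 in the Flcn/Tfe3 cross, with a sum of 1671 to 2137 CPM in Flcn KO against 1380 to 1863 CPM. Brown fat markers summed to 314 to 363 CPM in Flcn/Tfeb DKO against 146 to 323 CPM, and to 264 to 279 CPM in set C DKO against 238 to 638 CPM. Adrenal markers, which mark tissue beside the kidney, summed to between 0.287 and 293 CPM. Of the 8 adrenal markers 0, 4 and 0 were tested in the 3 crosses, and of the 8 brown fat markers 4, 5 and 4. Of those tested 0 were called, and in the Flcn/Tfeb cross 0 of all genes were. The 4 skeletal muscle markers tested in the Flcn/Tfeb cross had a median of 3.13 (3 higher, 0 called), with a sum of 18.8 to 418 CPM in DKO against 7.76 to 60.7 CPM. The part of any of these in the results was not tested.

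Between libraries of 1 group the members covaried weakly. Over 35 libraries, each as its deviation from the mean of its group and set, the median Pearson r of the 528 pairs of members was 0.144, against 0.00 for pairs of all genes tested, and 66.5% of the pairs were above 0 and 7.77% above 0.5. Members were chosen with earlier results of these data known, so these values are descriptions without a test. Whether libraries of a set shared a preparation was not given in the labels. The median was 0.0975, 0.330 and 0.0881 within the 3 crosses, which have 10, 7 and 18 libraries. Within roles the median r was highest for the auxiliary enzymes (0.346, 3 pairs), the electron transfer genes (0.338, 3 pairs), the acyl-CoA dehydrogenases (0.325, 6 pairs) and the Cyp4a genes (0.313, 10 pairs), and lower in the carnitine shuttle (0.169), the oxidation cycle (0.109), the peroxisomal genes (0.108) and the ketone genes (0.00).

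The closest pairs crossed these roles: Etfa and Acat1 (r = 0.76), Cpt1a and Hadha (0.72), Hadha and Oxct1 (0.70) and Hadha and Cyp4a10 (0.66). The most opposed pair was Hadha and Echs1, at -0.67, although both enzymes act in the same cycle. Hadha and Hadhb, the subunits of 1 protein with overlapping promoter windows, had r = -0.22.

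**Figure D4:**
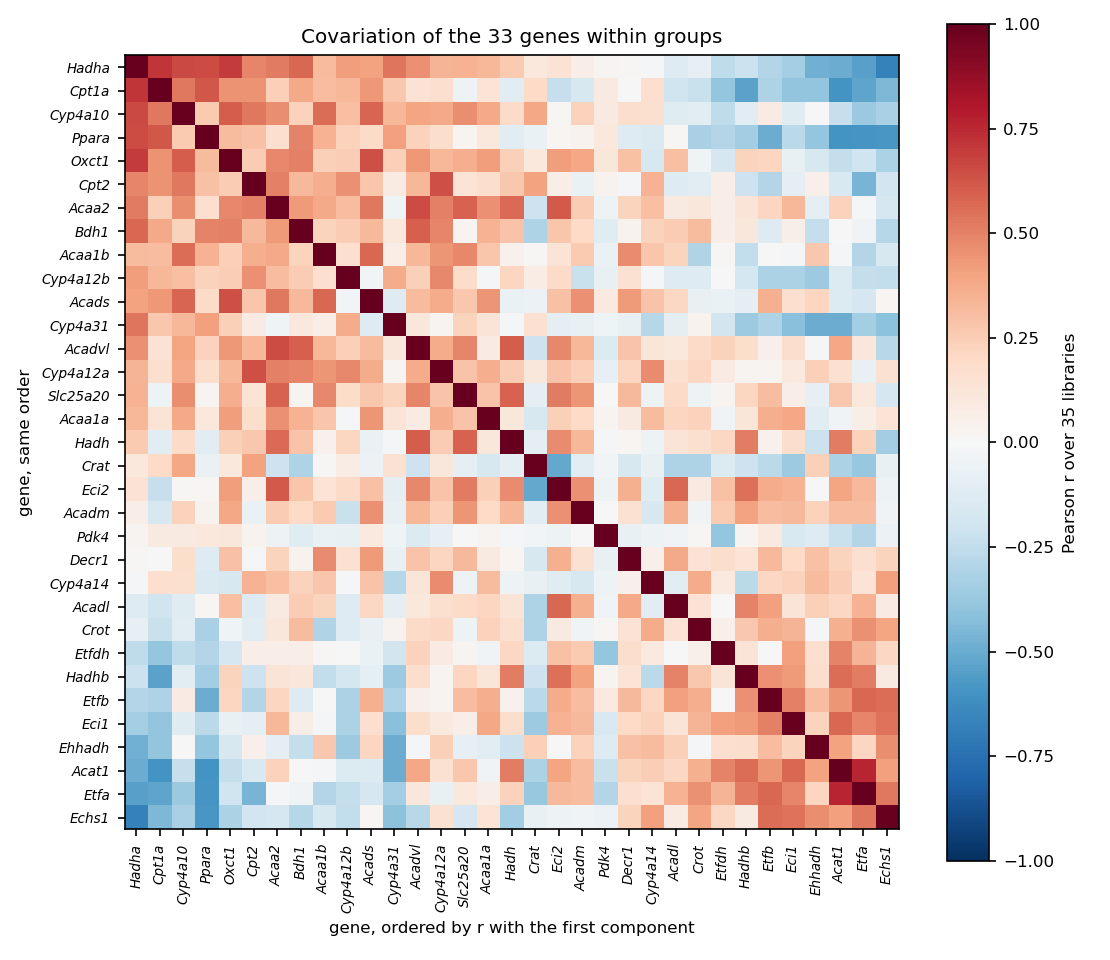
Pearson r between the 33 members over 35 libraries, after subtraction of the mean of each group and set, with genes ordered by their correlation with the first principal component. A block led by Hadha, Cpt1a, Cyp4a10 and Ppara stands at one end and a block with Echs1, Etfa and Acat1 at the other, negatively related to the first (Hadha and Echs1, r = -0.67).

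The first principal component of the members held 22.4% of their variance between libraries, with 23 members on one side and 10 on the other. It correlated at 0.94 with Hadha, 0.77 with Cpt1a, 0.74 with Cyp4a10, 0.71 with Ppara and 0.67 with Oxct1, and at -0.63 with Echs1, -0.63 with Etfa and -0.50 with Acat1. In the 26 libraries of sets A and C this component was lower where the share of alignments not unique was higher, with r = -0.83 (Spearman -0.77), r = -0.79 in set A, r = -0.89 in set C and r = -0.69 without the 2 libraries farthest from the median. It went nearly as closely with the share of reads in no gene (r = -0.80, Spearman -0.74). By gene, Echs1 was higher with that share (r = 0.92; 0.90 in set A, 0.96 in set C), while Hadha (r = -0.84), Oxct1 (-0.64), Hadh (-0.62), Ppara (-0.56), Cyp4a10 (-0.55), Cpt1a (-0.54) and Slc25a20 (-0.51) went against it, and Etfa (0.57) went with it. Without the 2 farthest libraries the r was 0.90 for Echs1, -0.72 for Hadha, -0.47 for Oxct1, -0.51 for Hadh, -0.48 for Ppara, 0.36 for Etfa and -0.32 for Slc25a20, but -0.13 for Cyp4a10 and -0.22 for Cpt1a, whose relation rests on those libraries. Of the 33 members 9 (27.3%) had an r beyond 0.5 in size, as did 33.1% of 13728 genes, so that this relation was no more frequent among the members than among all genes. With the share as a covariate the log2 fold changes in the Flcn cross, the Flcn/Tfeb cross and set C were -0.01, 0.12 and -0.14 for Hadh, 0.18, -0.03 and -0.20 for Ppara, -0.20, 0.03 and -0.31 for Cyp4a10, 0.16, 0.00 and -0.28 for Slc25a20 and 0.20, -0.10 and 0.22 for Etfa, each at an unadjusted edgeR p above 0.05. The part of the share in the results was tested only by the covariate values given above, and in set C the share and the genotype cannot be told apart fully, since 2 of the 4 DKO libraries lie below every control and the others below all but 1.

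The mean of the 33 genes, in log2 CPM from the mean of the controls, was 0.02 ± 0.10 (SD, n = 5) in Flcn KO, -0.19 ± 0.19 (n = 4) in Flcn/Tfeb DKO, 0.14 ± 0.06 (n = 6) in set B DKO and 0.09 ± 0.05 (n = 4) in set C DKO. Each of the 33 genes, scarce ones included, had the same weight in this mean. In the Flcn/Tfeb cross Cyp4a31 had a DKO minus control difference of -2.12 and Cyp4a12a of 1.34, in log2(CPM + 0.5). The controls of the Flcn/Tfeb cross stood at -0.28, -0.02 and 0.31, a wider span than the controls of the other crosses, which lay between -0.15 and 0.09. The mean was related to the proximal tubule markers over the 35 libraries (r = 0.75, Spearman 0.67; 0.56 without the 2 farthest), in set A (0.83) more than in set B (0.22) or set C (0.29). It was related to log2 library depth at r = 0.44 (0.44 in set A, -0.30 in set B and 0.77 in set C) and to the liver markers at 0.41 (0.74, -0.26 and -0.03). With red cell markers r was -0.10 (0.10, -0.78 and -0.57). After a linear fit on the proximal tubule markers the median r of the member pairs was 0.0858.

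**Figure D5:**
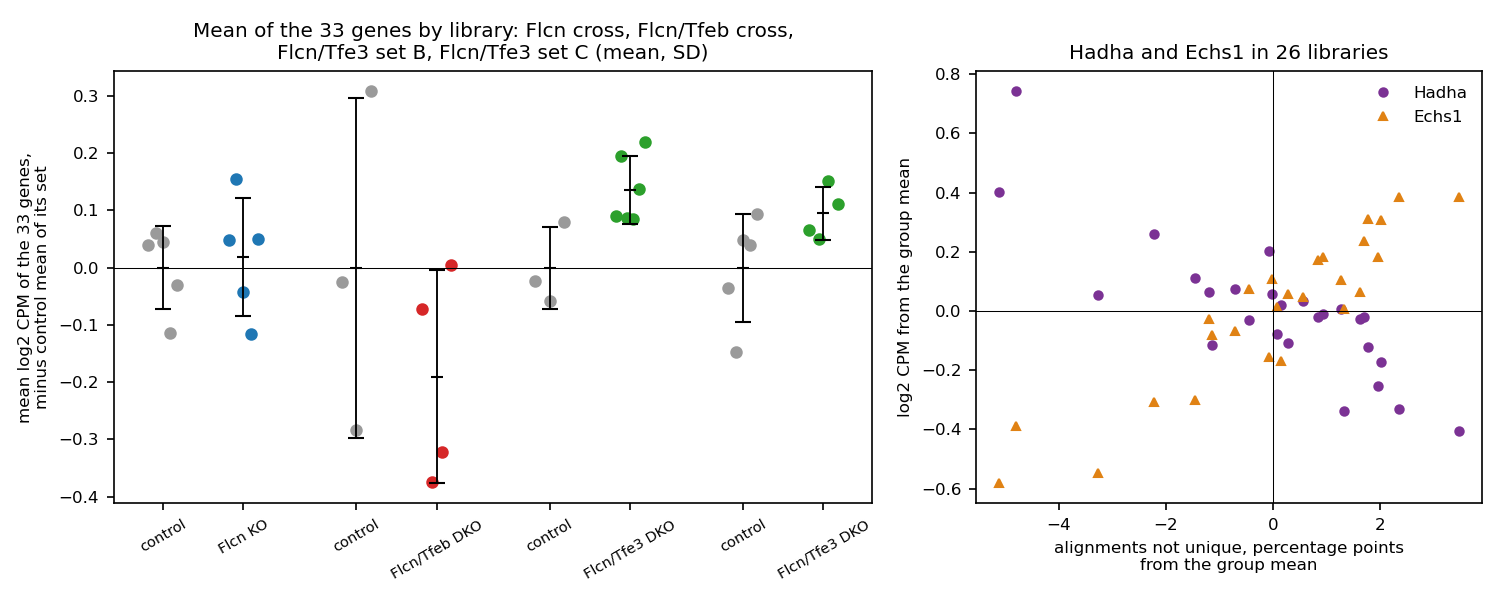
Left, mean log2 CPM of the 33 genes in each library from the control mean of its set, with group mean and SD; right, deviation of Hadha and Echs1 from their group mean against the deviation of the share of alignments not unique, in percentage points, in 26 libraries. The controls of the Flcn/Tfeb cross span -0.28 to 0.31 on the left, and on the right Hadha is lower (r = -0.84) and Echs1 higher (r = 0.92) where the share is higher.

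Genes outside the list whose deviations went most closely with the mean of the members were Serpinf2, which encodes α2-antiplasmin (r = 0.78), Hgd, homogentisate dioxygenase of tyrosine breakdown (0.75), Ndrg1 (0.75), Lrpap1, a chaperone of the LDL receptor family including megalin (0.75), and Atp6v0d1, a subunit of the vacuolar proton pump (0.74), over 35 libraries. In set A the r of Serpinf2 was 0.89 and that of Hgd 0.88, and in sets B and C together they were 0.37 and -0.13.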

How the data were processed

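Raw gene counts were deposited by the authors for 35 libraries (17 single tables, and set B and set C with their columns matched to samples by name; 0 sample columns were left unused). Per the methods, the authors made 3′ tag libraries (QuantSeq), trimmed reads with bbduk (the submitters' notes name Trim Galore), aligned them to mm10 with STAR and counted reads per gene with HTSeq-count 0.9.1, which drops reads that align to more than 1 place. The deposited percent column of multi-mapped reads was 0 in all 19411 genes with a value and was not used further. The strand setting of the counting is not given in the sources used here. Tally rows that name no gene stayed out of library sizes: in sets A and C, 33.7 to 49.4% of alignments were not unique, 7.92 to 19.9% lay in no gene and 0.317 to 0.500% were ambiguous.

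Counts were analysed with edgeR 4.0.16 (R 4.3.3; TMM scaling, filterByExpr, quasi-likelihood test, two-sided), separately for each cross, with a term for the set in the Flcn/Tfe3 cross, and with interaction contrasts between crosses. P-values were adjusted over all genes tested and called under 0.05. CPM values used TMM over all 35 libraries. Exact permutation tests, two-sided and not adjusted for the 33 genes, used log2(CPM + 0.5) and regrouped libraries within sets. Covariation used log2 CPM with a prior count of 2. The code was tested on simulated data. DESeq2 1.42.0, other scalings and filters, other covariates and leaving out each library were alternatives.

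All 33 members were accounted for by role. Values by library, or for larger or low groups their range, were given for the Cyp4a genes, Ppara, Pdk4, members called or at an unadjusted p under 0.05, and the 3 largest changes of each comparison. Among other genes, the 5 most alike and those of the pathway list called, or else its 3 lowest p-values, were named. A gene of the pathway list that this rule named is not reported here. Members and lists were chosen with earlier results of these data known. Libraries of a group differed by more than counting noise in all 63 pairs. Sequences came from RefSeq (GRCm38.p6).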

Additional observations from a re-analysis of the deposited data

Results flagged for a closer look

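Single libraries stood apart from the rest of their group, by Dixon's criterion, in 14 of 204 combinations of a group with a member or with the mean of the members, where chance gives about 1 in 20. In the Flcn KO libraries, replicate 4 was lowest for Cpt2 (36.4 CPM, others 53.4 to 62.2) and Crat (23.8 CPM, others 29.8 to 32.1), and replicate 5 was lowest for Echs1 (118 CPM, others 151 to 156). In the set B Flcn/Tfe3 DKO libraries, replicate 3 was lowest for Cpt2 (43.9 CPM, others 56.9 to 64.0) and Bdh1 (53.0 CPM, others 61.9 to 66.3), and replicate 1 was lowest for Acaa1a (44.6 CPM, others 56.9 to 62.8).

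The first Flcn/Tfeb DKO library was highest for Hadh (200.1 CPM, others 173 to 177), Acaa1a (53.6 CPM, others 41.4 to 43.3) and Oxct1 (424 CPM, others 355 to 362), and the fourth for Decr1 (124 CPM, others all 116). Among the set C controls, replicate 5 was lowest for Acadvl (90.4 CPM, others 112 to 117) and replicate 4 highest for Hadhb (45.9 CPM, others 30.3 to 32.5). Cyp4a12a stood apart at 0.604 CPM in set B DKO replicate 2 and at 0.304 CPM in set C DKO replicate 9, where all others were at 0, which are 2 counts and 1 count.

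The effect on Cyp4a31 differed between the Flcn/Tfe3 and Flcn/Tfeb crosses by 3.22 on the log2 scale (edgeR interaction, adjusted p = 0.0155), with the first Flcn/Tfeb control at the level of the DKO libraries.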

How the results depend on the processing

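In the Flcn/Tfe3 cross the number of members called was 4 with DESeq2 (Acadvl, Hadha, Hadhb and Oxct1, against 0.57% of all genes) and 2 in set C alone (Hadha and Oxct1, against 4.68%). It was 0 in set B alone (all genes, 0.0606%), with Xist as a covariate (0.209%) and without the set term (0.233%). It was also 0 in set C with the share of alignments not unique (0.0575%) and with the replicate number as a block (0.00805%). The replicate numbers did not pair the libraries (correlations of deviations from -0.32 to 0.31 over 13 pairs), and with the block 1 gene of all was called there. Leaving out single libraries gave 0 to 2 (30 to 53 of all genes), with Oxct1 lost without DKO replicate 7 and Hadhb gained without control 4 or DKO replicate 10. The median of the members was 0.21 in set B alone.

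In the Flcn/Tfeb cross leaving out libraries gave 0 to 1 calls and medians from -0.30 to -0.054. The call was Cyp4a31 without control 1, the only control at the level of the DKO libraries. For its difference from the Flcn cross, 1 member (Cyp4a31) was called with DESeq2 (all genes, 0.0854%) and 1 without the filter (0.0146%), and 0 to 1 with libraries left out (0 to 3 of all genes). For the difference between the Flcn/Tfe3 and Flcn/Tfeb crosses, DESeq2 called 2 (Cyp4a31 and Oxct1, against 0.0699% of all genes). The replicate block (all genes, 0%), set B alone (0%) and set C alone (0.00762%) called 0 each. Leaving out libraries gave 0 to 4 (1 to 82 of all genes), with medians from 0.22 to 0.44. The 4 without control 2, where 0.588% of all genes were called, were Acadvl, Oxct1, Hadha and Cyp4a31. The median r between members was 0.205 in set A, 0.109 in set B, 0.0998 in set C, 0.170 without centring, 0.0858 after the proximal tubule fit and 0.134 by Spearman. The causes of these changes were not tested. No value of a member changed direction past the threshold. Members under 3 counts (Pdk4, Cyp4a12a and Cyp4a12b in many libraries) are limited by depth.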

Other observations

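Xist exceeded 100 CPM, the level taken here to mark female kidneys, in 1 of 5 controls and 1 of 5 Flcn KO libraries, in 2 of 3 controls and 3 of 4 Flcn/Tfeb DKO libraries, in 1 of 3 controls and 1 of 6 DKO libraries of set B, and in 4 of 5 controls and 2 of 4 DKO libraries of set C. The adjusted p of Oxct1 in the Flcn/Tfe3 cross moved from 0.0133 to 0.0954 with Xist in the edgeR model.

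Besides the members, Hsd17b4, which handles branched and very long chains in peroxisomes, had effects that were higher in the Flcn/Tfe3 cross than in the Flcn cross by 0.61 (edgeR, p = 0.00231) and than in the Flcn/Tfeb cross by 0.75 (p = 0.00389), without passing the adjusted threshold. Acsl4 had an effect lower by 1.01 in Flcn/Tfeb than in Flcn alone (p = 0.00266). The other genes of the wider list with the lowest p-values in these contrasts were Creb3l3 (2.66, p = 0.0288) and Decr2 (0.50, p = 0.0305) for Flcn/Tfeb against Flcn, Acot13 (-0.73, p = 0.0338) and Mcee (-0.65, p = 0.0392) for Flcn/Tfe3 against Flcn, and Acsl4 (0.86, p = 0.00473) and Creb3l3 (-3.53, p = 0.00637) for Flcn/Tfe3 against Flcn/Tfeb, with 0 of the list called.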
